A study of Homo sapiens with 6 samples.

Results

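The 32 genes described here encode surface receptors, granule proteins, signalling proteins and cytoskeletal proteins of platelets and of megakaryocytes, the bone marrow cells that shed platelets. They were taken by name from a fixed list, and all 32 matched a gene among the 61487 in the deposited count table. Transcripts were measured in K562, a human chronic myeloid leukaemia line that carries the BCR-ABL1 fusion and is classed as a myeloblast in the labels. The azacitidine-resistant group had 3 libraries from K562 cells kept for months in rising concentrations of azacitidine, a cytidine analogue that enters nucleic acids and binds DNA methyltransferases irreversibly. The azacitidine-sensitive group had 3 libraries from the original K562 cells, grown in the same medium. All 6 are called biological replicates, without saying how the cultures were kept apart, so each p-value rests on the spread of these libraries alone, which may be technical. All 6 library names end in NT, a tag that the names do not spell out. Whether the drug was present at harvest is not otherwise given in the sources used here. Nor is whether the resistant cells were a clone or a mixed population.

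Platelets stick to injured vessel walls through the receptor complex GPIb-IX-V, which binds von Willebrand factor, and through the collagen receptor GPVI. Thrombin, ADP and thromboxane then act on G protein-coupled receptors, and the platelet empties its alpha and dense granules and contracts. K562 cells stem from a progenitor that can take on erythroid or megakaryocytic features, and in culture they are known to express parts of both programmes.

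Of the 32 genes, 19 had enough counts to be tested and 13 did not. Levels are read counts scaled to a library total of 1e+06 (CPM) after trimmed mean of M values (TMM) correction of that total, each group mean is given ± SD with n = 3 libraries, and fold changes are resistant over sensitive. A gene is called higher or lower at a Benjamini-Hochberg adjusted p below 0.05 in edgeR's quasi-likelihood test over 20891 genes. In that comparison 13.1% of all tested genes were called lower, 9.83% higher and 23% either way. Of the 19 platelet genes, 8 were lower, 0 were higher and 11 did not pass. With edgeR 0 of the 19 were higher at an unadjusted p below 0.05, and DESeq2 and limma-voom also called 0 higher. The 8 genes that fell were F2RL3, F2R, CD226, SRGN, LTBP1, THBS1, RAB27B and MYL9, and all 8 fell by at least 2-fold, as did 8.97% of all tested genes. The median log2 fold change of the 19 was −0.78, against 0.03 over all tested genes. The filter's level was reached in all 6 libraries by 17 of the 19, and none of the 19 passed it through the sensitive libraries alone. Without both libraries numbered 3, 10 of the tested genes were lower and 1, MYLK, was higher, and MYLK was also higher without resistant replicate 3 alone.

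Total counts ranged from 33007642 to 43006918 per library. The first principal component, with 66.3% of the variance, separated the groups, and the second, with 18.0%, set the library numbered 3 of each group apart from its other two. Mitochondrial ribosomal RNA took 8.54% of counts in resistant replicate 3 and between 12.8% and 17.8% in the other 5 libraries. The part of these differences in the results was not tested.

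**Figure D1:**
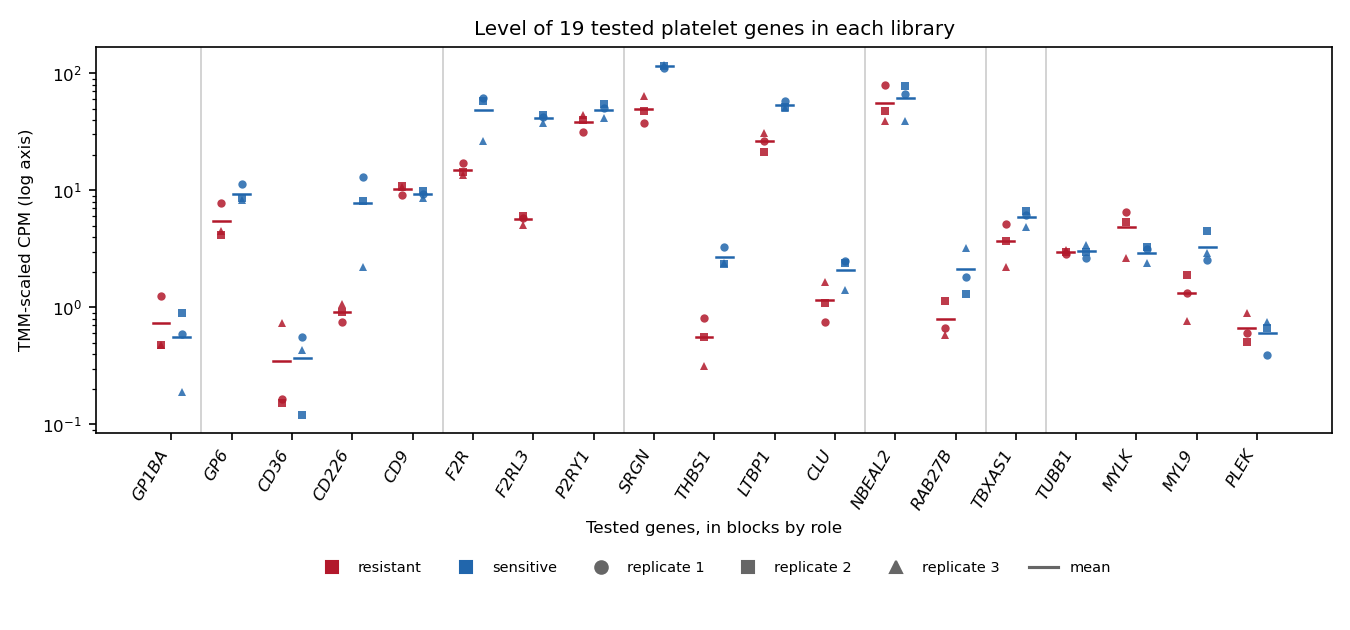
TMM-scaled CPM of the 19 tested genes on a log axis, with a point for each of the 3 resistant (left, red) and 3 sensitive (right, blue) libraries of a gene, marker shapes for replicates 1 to 3 and a bar at the group mean. The 3 resistant libraries lie below all 3 sensitive libraries for 9 genes, the 8 that were called lower and GP6, and did so for 21.4% of all tested genes.

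Sequence before the starts of 5 of the genes is printed to show what the table of promoters holds for genes that fell, a gene that did not pass and a nearly silent one. The RefSeq table (GRCh38.p14) held a start for 25 of the 32 genes, and it was not used for GP1BA, VWF, F2R, PF4, SRGN, CLU and MYL9. The 250 bases before the start were searched on both strands for GATA letters (AGATAA or TGATAA), the motif of factors such as GATA1, and for ETS letters (CCGGAA or CAGGAA), the motif of factors such as ETS1 and FLI1. Matches are in capitals, and no GATA match shares a base with an ETS match in the windows shown. F2RL3 (chr19:16888749-16888859, plus strand) and THBS1 (chr15:39580829-39581078, plus strand) are genes that fell and hold ETS letters, and RAB27B (chr18:54717607-54717856, plus strand) is the gene that fell with GATA letters. GP6 (chr19:55038265-55038514, minus strand) is the collagen receptor gene, which did not pass, and PPBP (chr4:73988198-73988440, minus strand) is a platelet chemokine gene with 1 count in all. Each of the 5 windows shown holds a match, so they do not stand for all. Those of LTBP1 and CD226, which also fell, hold neither GATA nor ETS letters. The printed stretches of F2RL3 and PPBP stop where GENCODE 29 puts their first exon, which leaves out 139 and 7 bases.
F2RL3: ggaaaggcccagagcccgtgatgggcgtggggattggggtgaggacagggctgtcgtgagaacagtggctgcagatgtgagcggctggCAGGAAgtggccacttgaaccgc
THBS1: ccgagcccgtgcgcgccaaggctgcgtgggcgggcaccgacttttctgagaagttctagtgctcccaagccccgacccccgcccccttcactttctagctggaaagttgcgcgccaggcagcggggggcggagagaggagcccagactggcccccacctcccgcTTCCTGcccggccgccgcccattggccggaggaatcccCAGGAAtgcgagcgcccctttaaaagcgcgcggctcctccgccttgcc
RAB27B: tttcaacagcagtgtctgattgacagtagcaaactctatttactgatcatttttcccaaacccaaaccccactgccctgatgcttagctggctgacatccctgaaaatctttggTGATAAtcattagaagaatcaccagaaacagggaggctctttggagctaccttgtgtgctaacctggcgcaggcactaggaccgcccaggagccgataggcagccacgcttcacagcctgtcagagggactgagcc
GP6: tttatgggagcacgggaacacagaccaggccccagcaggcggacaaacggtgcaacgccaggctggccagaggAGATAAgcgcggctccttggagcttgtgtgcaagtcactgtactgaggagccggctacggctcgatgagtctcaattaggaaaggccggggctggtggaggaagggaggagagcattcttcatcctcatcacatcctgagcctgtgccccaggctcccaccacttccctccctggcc
PPBP: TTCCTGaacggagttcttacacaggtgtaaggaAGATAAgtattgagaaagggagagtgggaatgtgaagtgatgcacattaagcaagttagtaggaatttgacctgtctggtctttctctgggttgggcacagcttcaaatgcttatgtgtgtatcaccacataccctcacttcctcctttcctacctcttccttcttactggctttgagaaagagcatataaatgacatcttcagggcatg
Counted from the start, the F2RL3 window has ETS letters at −162 and, in the stretch not printed, at −133, and THBS1 has them at −86 and −48. GATA letters stand at −136 in RAB27B and at −177 in GP6, while PPBP has ETS letters at −250 and GATA letters at −217. ETS letters were present in 2 of the 5 genes that fell and have a window, 3 of the 9 other tested genes and 5 of the 11 untested genes, beside 35.9% of all 27305 promoters. GATA letters were present in 1 of 5, 1 of 9 and 4 of 11, beside 14.9% of all promoters. CpG dinucleotides, the sites that DNA methyltransferases act on, numbered 9 in the F2RL3 window, 24 in that of THBS1, 4 in that of RAB27B, 10 in that of GP6 and 1 in that of PPBP. The median CpG number was 9 (range 4 to 24) in the 5 genes that fell and 4 (1 to 28) in the 9 other tested genes. It was 2 (0 to 29) in the 11 untested genes and 11 (0 to 67) over all promoters. These ranges overlapped, so the medians do not set the groups apart. Some windows, among them those of CD226, MYLK, CD36 and TBXAS1, lie inside the gene's span in GENCODE 29 and not before its outermost start. DNA methylation and factor binding were not measured in these libraries.

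Both thrombin receptor genes of the set fell. F2RL3, which encodes the thrombin receptor PAR4 (chromosome 19, 16888860 to 16892606), measured 5.79, 6.06 and 5.09 CPM in the resistant libraries, against 42.7, 44.3 and 37.6 CPM in the sensitive libraries. The groups were far apart and each was narrow. F2RL3 averaged 5.64 ± 0.501 CPM in resistant and 41.5 ± 3.53 CPM in sensitive cells, a log2 fold change of −2.88 ± 0.17 (SE), 7.35-fold lower (edgeR adjusted p = 3.48e-06), and it stayed between −2.96 and −2.71 under 16 alternatives. F2R, the gene of the high-affinity thrombin receptor PAR1 (chromosome 5, 76716043 to 76735781), measured 17.1, 14.2 and 13.4 CPM in the resistant libraries, against 61.9, 58.3 and 26.3 CPM in the sensitive libraries. The groups did not overlap, but sensitive replicate 3 had less than the other two. The log2 fold change of F2R was −1.71 ± 0.29 (SE; edgeR adjusted p = 0.00256), and −2.02 without sensitive replicate 3. It lay between −2.02 and −1.53 under the 16 alternatives.

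The other members of the protease-activated receptor family were scarce. F2RL2, which encodes PAR3 and lies beside F2R, averaged 0.398 ± 0.270 CPM in resistant and 0.475 ± 0.0873 CPM in sensitive cells and did not pass (edgeR adjusted p = 0.804). F2RL1, which encodes PAR2 and lies on the other side of F2R, had 8 counts in resistant and 40 in sensitive libraries and was not tested. Both were named after their values were seen.

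Neither ADP receptor gene was called. P2RY1, which encodes the Gq-coupled ADP receptor (chromosome 3, 152834693 to 152841439), measured 31.8, 40.03 and 44.3 CPM in the resistant libraries, against 50.5, 54.2 and 41.6 CPM in the sensitive libraries. The groups overlapped, since resistant replicate 3 was above sensitive replicate 3. P2RY1 had a log2 fold change of −0.33 ± 0.17 (SE; edgeR adjusted p = 0.203), and −0.56 without both libraries numbered 3 (0.00252). P2RY12, the gene of the Gi-coupled ADP receptor that clopidogrel blocks, had no counts in any library. GNG11, a G protein gamma subunit gene of platelets, had 0 counts in resistant and 10 in sensitive libraries, in replicates 1 and 3.

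Of the adhesion complex GPIb-IX-V and its ligand, little RNA was counted. GP1BA, which encodes the chain that binds von Willebrand factor, measured 1.25, 0.478 and 0.472 CPM in the resistant libraries, against 0.587, 0.902 and 0.187 CPM in the sensitive libraries. The groups overlapped, and the gene did not pass (log2 fold change 0.39 ± 0.63 SE, edgeR adjusted p = 0.698). GP9 had 0 counts in resistant and 6 in sensitive libraries, GP5 had 7 and 4, and VWF, which encodes the ligand, 3 and 5. GP1BB had no counts, but all 1553 exon bases of GP1BB lie inside exons of the gene ENSG00000284874 on the same strand, which had 207 counts in resistant and 227 in sensitive libraries. The counts therefore do not show whether GP1BB was transcribed.

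Among the remaining surface receptors, CD226 fell and the others did not pass. CD226, which encodes the adhesion receptor DNAM-1 (chromosome 18, 69831158 to 69961803), measured 0.747, 0.905 and 1.08 CPM in the resistant libraries, against 13.03, 8.12 and 2.22 CPM in the sensitive libraries. The resistant libraries lay close together and the sensitive ones spread widely, with replicate 3 the lowest. CD226 had a log2 fold change of −3.09 ± 0.56 (SE; edgeR adjusted p = 0.00345), 8.54-fold lower, and −3.69 without both libraries numbered 3. Its log2 fold change lay between −3.69 and −2.52 under 16 alternatives.

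GP6, which encodes the collagen receptor GPVI, measured 7.78, 4.17 and 4.46 CPM in the resistant libraries, against 11.3, 8.57 and 8.25 CPM in the sensitive libraries. The groups did not overlap, as was so for 40.1% of all tested genes, but the log2 fold change of −0.78 ± 0.28 (SE) did not pass (edgeR adjusted p = 0.0741). GP6 did pass without resistant replicate 1, the highest of its group (−1.11, 0.0159), with DESeq2 (−0.79, 0.0351) and without both libraries numbered 3 (−0.75, 0.0289). It also passed with no filter on low counts (−0.80, 0.0190) and with a replicate block (−0.82, 0.0144). Under 11 of the 16 alternatives it did not pass. The antisense gene GP6-AS1, which shares 44 exon bases with GP6, had 491 counts in resistant and 752 in sensitive libraries, and whether the counting used strand is not given. CD9, a tetraspanin gene, averaged 10.3 ± 1.01 CPM in resistant and 9.26 ± 0.604 CPM in sensitive cells and did not pass (edgeR adjusted p = 0.605). CD36, a receptor for thrombospondin and lipids, averaged 0.3504 ± 0.333 and 0.370 ± 0.227 CPM in resistant and sensitive cells (edgeR adjusted p = 0.945). CLEC1B, the gene of the podoplanin receptor CLEC-2, had no counts in any library.

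**Figure D2:**
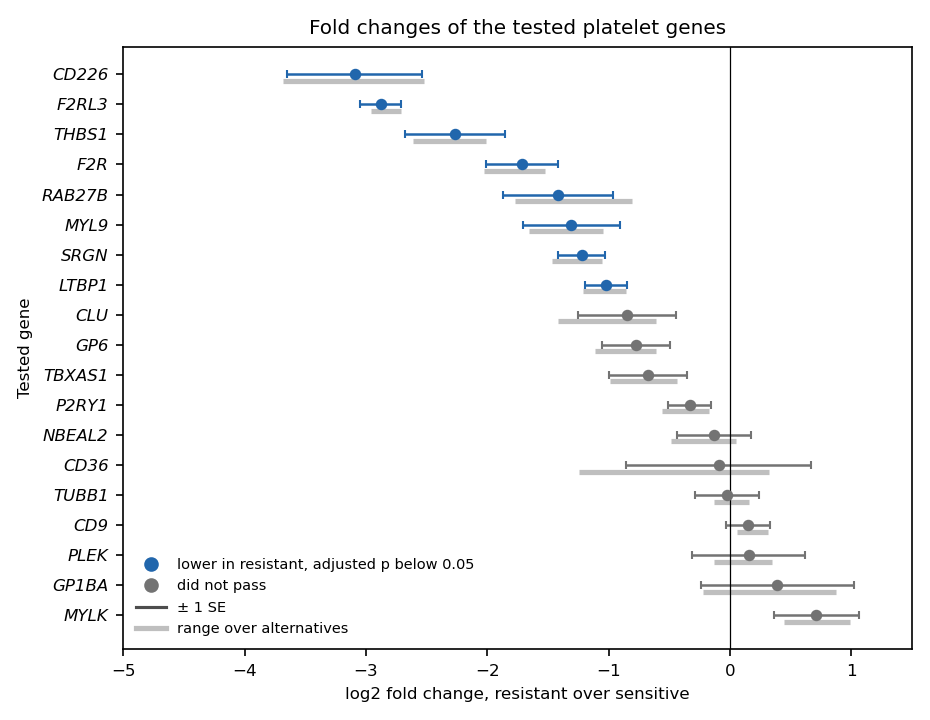
Log2 fold change of each tested gene, resistant over sensitive, with ± 1 SE from edgeR and, as a grey bar beneath, the range over the alternatives that could test the gene. The 8 genes called lower (blue) run from −3.09 for CD226 to −1.02 for LTBP1, while the 11 others (grey) run from −0.85 for CLU to 0.71 for MYLK.

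Of the granule content genes, SRGN, LTBP1 and THBS1 fell. SRGN, which encodes serglycin, the proteoglycan that holds alpha granule proteins (chromosome 10, 69088106 to 69104811), measured 37.5, 47.3 and 63.5 CPM in the resistant libraries, against 111, 116 and 119 CPM in the sensitive libraries. Every resistant library was well below the narrow sensitive group, and resistant replicate 3 was the nearest. SRGN averaged 49.4 ± 13.2 CPM in resistant and 115 ± 3.91 CPM in sensitive cells (log2 fold change −1.22 ± 0.20 SE, edgeR adjusted p = 0.00178). LTBP1, which encodes a protein that binds latent TGF-beta (chromosome 2, 32946972 to 33399509), measured 26.5, 21.4 and 31.0 CPM in the resistant libraries, against 58.2, 51.3 and 50.4 CPM in the sensitive libraries. The level of LTBP1 was 2.03-fold lower, with no overlap of the groups (log2 fold change −1.02 ± 0.17 SE, edgeR adjusted p = 0.00234).

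THBS1, which encodes thrombospondin 1, an adhesive alpha granule protein (chromosome 15, 39581079 to 39599466), measured 0.803, 0.553 and 0.315 CPM in the resistant libraries, against 3.30, 2.34 and 2.41 CPM in the sensitive libraries. Both levels were low, yet the groups did not overlap, and THBS1 was 4.81-fold lower (log2 fold change −2.27 ± 0.41 SE, edgeR adjusted p = 0.00355). CLU, the gene of the chaperone clusterin, measured 0.747, 1.08 and 1.65 CPM in the resistant libraries, against 2.49, 2.37 and 1.42 CPM in the sensitive libraries. Its groups overlapped through the libraries numbered 3, and it did not pass (log2 fold change −0.85 ± 0.40 SE, edgeR adjusted p = 0.161). CLU was lower without resistant replicate 3 (−1.21, 0.0442) and without both libraries numbered 3 (−1.42, 0.00358).

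The classical platelet chemokine genes were not detected beyond 1 count. PF4, which encodes platelet factor 4, had no counts in any library, and PPBP, which encodes the precursor of neutrophil-activating peptide 2, had 0 counts in resistant and 1 in sensitive libraries. A library with a count of 0 allows a level of up to 0.0733 to 0.0902 CPM (3 counts of its scaled total), which covers counting error only. MMRN1, which encodes the factor V carrier multimerin 1, had 2 counts in resistant and 4 in sensitive libraries.

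Of the genes of granule membranes, formation and release, RAB27B was called. NBEAL2, which is needed to make alpha granules and is mutated in gray platelet syndrome, measured 80.2, 47.7 and 39.1 CPM in the resistant libraries, against 66.4, 77.5 and 39.1 CPM in the sensitive libraries. The groups covered nearly the same range, and NBEAL2 did not pass (log2 fold change −0.13 ± 0.30 SE, edgeR adjusted p = 0.790). RAB27B, a small GTPase gene for dense granule release, measured 0.664, 1.13 and 0.577 CPM in the resistant libraries, against 1.83, 1.29 and 3.24 CPM in the sensitive libraries. The groups lay next to each other without overlap, and the log2 fold change of −1.42 ± 0.45 (SE) just passed (edgeR adjusted p = 0.0477). This call was lost without resistant replicate 1 (0.123), resistant replicate 2 (0.0620), resistant replicate 3 (0.0704), sensitive replicate 1 (0.0934) or sensitive replicate 3 (0.151), and without both libraries numbered 3 (−0.81, 0.116). It was also lost with limma-voom (0.0595), with library totals alone (0.0712) and with TMM without mitochondrial genes (0.0501). SELP, the gene of the granule membrane protein P-selectin, had 5 counts in resistant and 0 in sensitive libraries, and TREML1, of another alpha granule membrane receptor, 1 and 2.

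Neither eicosanoid enzyme gene of the set was called. TBXAS1, which encodes thromboxane synthase, measured 5.15, 3.70 and 2.23 CPM in the resistant libraries, against 6.13, 6.70 and 4.85 CPM in the sensitive libraries. Resistant replicate 1 lay above sensitive replicate 3, and the log2 fold change of −0.68 ± 0.32 (SE) did not pass (edgeR adjusted p = 0.159). HPGDS, which encodes haematopoietic prostaglandin D synthase, had 1 count in resistant and 10 in sensitive libraries.

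Of the contractile and cytoskeletal genes, MYL9 fell. MYL9, a regulatory light chain of myosin (chromosome 20, 36541484 to 36551447), measured 1.33, 1.89 and 0.761 CPM in the resistant libraries, against 2.52, 4.48 and 2.89 CPM in the sensitive libraries. No library of one group reached the other (log2 fold change −1.31 ± 0.40 SE, edgeR adjusted p = 0.0403). The MYL9 call was lost without resistant replicate 1 (0.0899), resistant replicate 3 (0.0521), sensitive replicate 1 (0.0611), sensitive replicate 2 (0.153) or sensitive replicate 3 (0.0530), and with library totals alone (0.0708).

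MYLK, the kinase gene that phosphorylates such light chains, measured 6.48, 5.36 and 2.62 CPM in the resistant libraries, against 3.13, 3.28 and 2.41 CPM in the sensitive libraries. Resistant replicates 1 and 2 were above all sensitive libraries and replicate 3 was among them, and MYLK did not pass (log2 fold change 0.71 ± 0.35 SE, edgeR adjusted p = 0.171). MYLK was higher without resistant replicate 3 (0.99, 0.0190) and without both libraries numbered 3 (0.87, 0.00637). The antisense gene MYLK-AS1, sharing 133 exon bases with MYLK, had 274 counts in resistant and 375 in sensitive libraries. TUBB1, the tubulin gene that builds the platelet's marginal band, averaged 2.96 ± 0.123 CPM in resistant and 3.01 ± 0.396 CPM in sensitive cells (edgeR adjusted p = 0.958). TUBB1 shares 1188 exon bases with ATP5F1E on the opposite strand, which had 25718 counts in resistant and 23893 in sensitive libraries, so its level is uncertain where strand was not used. PLEK, the gene of pleckstrin, the main protein kinase C substrate of platelets, averaged 0.668 ± 0.201 and 0.601 ± 0.187 CPM in resistant and sensitive cells (edgeR adjusted p = 0.842).

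Scaled by exon length (CPM per kilobase, GENCODE 29), the order of levels among the 19 tested genes differed between the groups. SRGN was highest in both, at 40.5 ± 10.8 CPM per kilobase in resistant and 94.6 ± 3.20 in sensitive cells. In resistant cells P2RY1 (5.74 ± 0.941), NBEAL2 (5.67 ± 2.21), F2R (3.66 ± 0.472) and LTBP1 (3.59 ± 0.654) came next, and neighbours in this run did not differ beyond their spread. F2RL3 was in place 8 at 1.63 ± 0.144 CPM per kilobase, but did not differ beyond the spread from GP6 above it, nor GP6 from CD9. In sensitive cells F2R (12.01 ± 4.82) and F2RL3 (11.96 ± 1.02) followed SRGN, with no difference beyond their spread. LTBP1 (7.28 ± 0.584) and P2RY1 (7.23 ± 0.964) came next, also with no difference beyond their spread. These lengths cover all annotated exons, so a gene with many transcript forms, such as MYLK at 22.2 kilobases, is set low.

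Other platelet pathway genes, 193 in 8 lists, were also compared. Of 166 tested, 63 were lower, 11 higher and 92 did not pass, with a median log2 fold change of −0.39, beside 13.1% lower and 9.83% higher over all genes. The counts of each list are set out in the plot of calls.

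**Figure D3:**
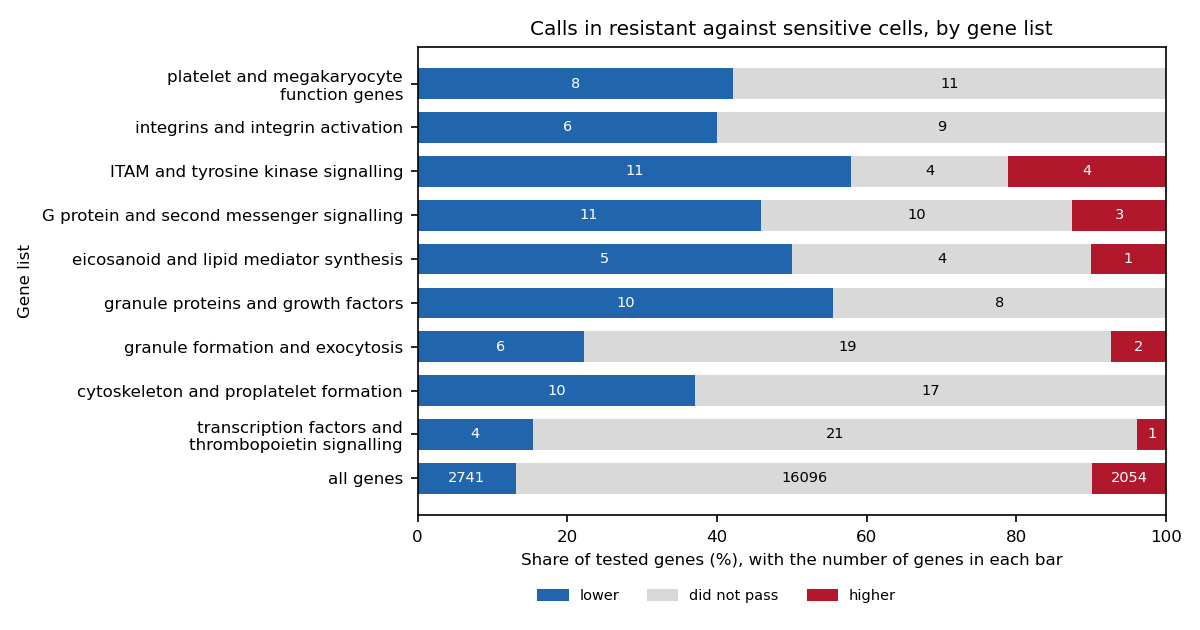
Share of tested genes called lower (blue), not passed (grey) and called higher (red) in resistant against sensitive cells, with the number of genes in each bar, for the platelet function genes, 8 lists of other platelet pathway genes and all 20891 genes. Lower calls made up 57.9% of the tyrosine kinase signalling list and 15.4% of the transcription factor list, against 13.1% of all genes.

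Downstream of the collagen receptor, adaptor and kinase genes of ITAM signalling fell widely, ITAM being the tyrosine motif that GPVI's partner chain carries. Of 19 tested, 11 were lower (7 without resistant replicate 2), 4 higher and 4 did not pass. With all libraries, 57.9% were lower and 21.1% higher, beside 13.1% and 9.83% of all tested genes. FYB1, the adaptor ADAP that links these receptors to integrins, averaged 0.432 ± 0.203 CPM in resistant and 175.2 ± 12.97 CPM in sensitive cells (404-fold lower, edgeR adjusted p = 3.92e-07). LCP2, the adaptor SLP-76, averaged 1.51 ± 0.505 and 38.9 ± 3.64 CPM in resistant and sensitive cells, and the kinase gene SYK 11.5 ± 1.13 and 70.3 ± 11.3 CPM. VAV1, a Rac activator gene, was 4.23-fold lower. SRC, a kinase gene (named after its value was seen), was 7.44-fold higher, at 7.54 ± 2.71 CPM in resistant and 1.01 ± 0.243 CPM in sensitive cells (edgeR adjusted p = 3.45e-04). FCER1G, the ITAM chain that GPVI needs (also named after its value was seen), did not pass, at 0.411 ± 0.0360 CPM in resistant and 0.571 ± 0.204 CPM in sensitive cells.

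Genes of G protein and second messenger signalling, further receptors among them, were lower in part. Of 24 tested, 11 were lower, 3 higher and 10 did not pass. The lower share was 45.8%, beside 13.1% over all tested genes, and the higher share was 12.5%, near the 9.83% over all tested genes. The higher count was 1 without resistant replicate 1, resistant replicate 2, sensitive replicate 1 or sensitive replicate 2, 5 without resistant replicate 3 and 6 without both libraries numbered 3. PTGER3, the prostaglandin E2 receptor EP3, averaged 0.365 ± 0.246 CPM in resistant and 48.9 ± 5.85 CPM in sensitive cells (log2 fold change −7.07, and −7.70 without resistant replicate 1). PLCB2, the phospholipase gene of Gq-coupled receptors, averaged 4.003 ± 1.39 and 27.4 ± 2.03 CPM in resistant and sensitive cells, RGS10, which damps G protein signals, 23.6 ± 3.58 and 88.5 ± 9.53 CPM, and P2RX1, the ATP-gated channel of platelets, 3.54 ± 1.21 and 15.7 ± 1.89 CPM. GNAQ, the Gq alpha subunit gene (named after its value was seen), was 1.56-fold higher (edgeR adjusted p = 0.0272), a call lost without resistant replicate 1 (0.0568), resistant replicate 2 (0.0910), sensitive replicate 1 (0.126) or sensitive replicate 2 (0.146).

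The enzymes that feed thromboxane synthase fell, while thromboxane synthase itself did not pass. Of 10 tested genes of eicosanoid and lipid mediator synthesis, 5 were lower, 1 higher (ALOX12, named after its value was seen, and 2 higher without both libraries numbered 3) and 4 did not pass. With all libraries, 50.0% were lower, beside 13.1% of all tested genes, and 10.0% higher, near the 9.83% of all tested genes. PLA2G4A, the phospholipase gene that frees arachidonate, averaged 2.76 ± 0.861 CPM in resistant and 69.8 ± 20.8 CPM in sensitive cells (25.2-fold lower, edgeR adjusted p = 7.62e-06). PTGS1, the cyclooxygenase 1 gene, averaged 1.93 ± 0.261 and 18.4 ± 7.14 CPM in resistant and sensitive cells. PTGS2, the cyclooxygenase 2 gene, had 0 counts in resistant and 167 in sensitive libraries, at least 56.9-fold lower against 3 counts over the resistant group. ALOX5, the 5-lipoxygenase gene, was 3.26-fold lower, and ALOX12, the platelet 12-lipoxygenase gene, averaged 7.26 ± 1.05 CPM in resistant and 2.33 ± 1.07 CPM in sensitive cells. TBXA2R, the thromboxane receptor gene (named after its value was seen), was 2.38-fold lower (edgeR adjusted p = 0.0114).

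**Figure D4:**
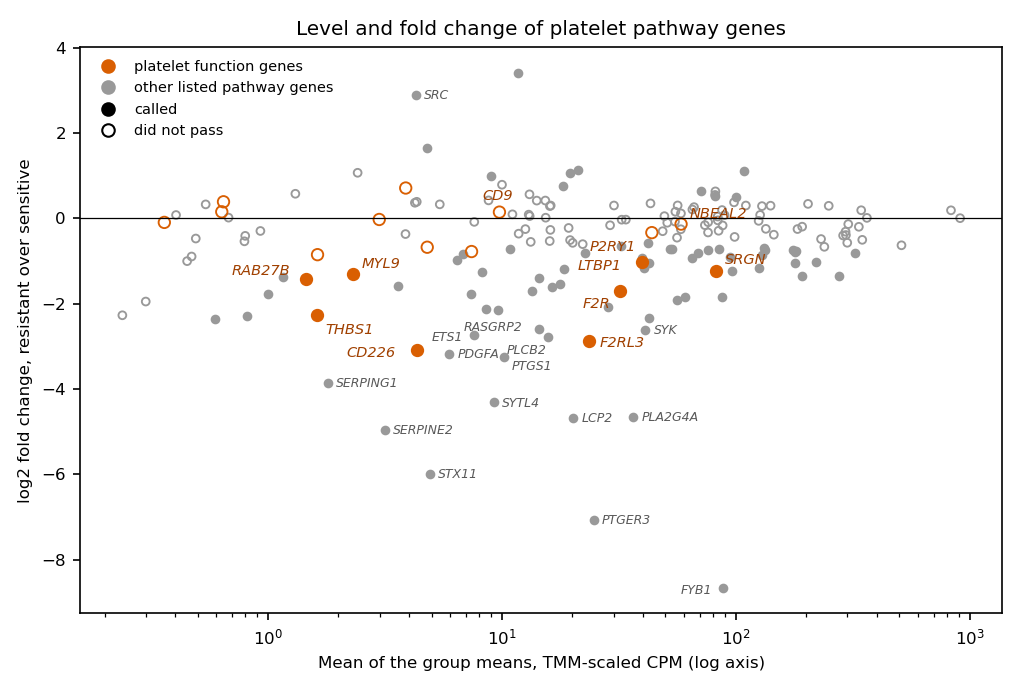
Log2 fold change, resistant over sensitive, against the mean of the group means in TMM-scaled CPM on a log axis, for the 19 tested platelet function genes (orange) and the other tested pathway genes (grey), filled where called. PTGS2, with 0 counts in resistant libraries, is left out. The platelet function genes lie between −3.09 and 0.71, and FYB1, PTGER3, STX11, LCP2 and PLA2G4A were among the pathway genes that fell further.

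Of 18 tested genes of granule proteins and growth factors, 10 were lower, 0 higher and 8 did not pass, with 0 higher at an unadjusted p below 0.05 in edgeR, 0 higher by DESeq2 or limma-voom, and 1 higher with library totals alone or with no filter. Lower calls came to 55.6%, beside 13.1% lower and 9.83% higher over all tested genes. The lower count was 10 or 11 without single libraries and 12 without both libraries numbered 3. TIMP1, a metalloproteinase inhibitor gene, averaged 26.3 ± 3.32 CPM in resistant and 95.03 ± 9.11 CPM in sensitive cells, EGF 8.12 ± 1.32 and 24.6 ± 5.07 CPM, ANGPT1, which encodes angiopoietin 1, 38.2 ± 5.60 and 136 ± 53.8 CPM, and PROS1, which encodes protein S, 49.6 ± 4.52 and 87.7 ± 3.85 CPM. Of 27 tested genes of granule formation and exocytosis, 6 were lower, 2 higher and 19 did not pass. These calls came to 22.2% lower and 7.41% higher, beside 13.1% and 9.83% of all tested genes. The lower count was 3 without resistant replicate 1, resistant replicate 2 or sensitive replicate 2, and 10 without both libraries numbered 3, and the higher count was 0 or 1 without any library but resistant replicate 3. STX11, a syntaxin gene needed for granule release, averaged 0.147 ± 0.117 CPM in resistant and 9.70 ± 1.84 CPM in sensitive cells (log2 fold change −5.999, and −6.69 without resistant replicate 3). SYTL4, which encodes the Rab27 effector granuphilin, averaged 0.878 ± 0.475 and 17.6 ± 2.69 CPM in resistant and sensitive cells. ABCC4, a transporter gene of dense granules, was 1.82-fold lower, and LYST, of lysosome-related organelles, 1.98-fold higher (edgeR adjusted p = 0.0105, and 0.0581 without resistant replicate 2).

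Integrin and cytoskeletal genes of the platelet were lower in part. Of 15 tested integrin and integrin activation genes, 6 were lower (3 without resistant replicate 2 or sensitive replicate 3), 0 higher and 9 did not pass, and edgeR at an unadjusted p below 0.05, DESeq2 and limma-voom gave 0 higher. With all libraries, 40.0% were lower, beside 13.1% lower and 9.83% higher over all tested genes. ITGA2B, the alpha chain of the fibrinogen receptor, measured 12.7, 11.8 and 17.8 CPM in the resistant libraries, against 94.0, 88.9 and 29.4 CPM in the sensitive libraries. Sensitive replicate 3 was the lowest of its group, as for F2R and CD226, and the log2 fold change of ITGA2B was −2.33 ± 0.39 (SE; edgeR adjusted p = 0.00216), and −2.91 without both libraries numbered 3. ITGB3, its partner chain, averaged 0.646 ± 0.211 and 0.940 ± 0.493 CPM in resistant and sensitive cells and did not pass. RASGRP2, which activates Rap1, was 6.06-fold lower, FERMT3, the integrin activator kindlin-3, 2.36-fold lower, and ITGB1 1.74-fold lower, a call lost without resistant replicate 1 (0.0558), resistant replicate 2 (0.1005) or sensitive replicate 3 (0.0508). Of 27 tested genes of the cytoskeleton and proplatelet formation, 10 were lower (6 without resistant replicate 2), 0 higher (also 0 at an unadjusted p below 0.05 in edgeR, 0 by DESeq2 or limma-voom, 2 with library totals alone and 1 without both libraries numbered 3) and 17 did not pass. Lower calls came to 37.0% with all libraries, again beside 13.1% lower and 9.83% higher over all tested genes. VCL, which encodes vinculin, averaged 109 ± 7.13 CPM in resistant and 276 ± 14.3 CPM in sensitive cells, the filamin gene FLNA 154 ± 24.7 and 396 ± 4.46 CPM, TPM4, a tropomyosin gene, 116 ± 7.28 and 240.4 ± 19.7 CPM, and WAS 3.33 ± 1.40 and 11.4 ± 1.29 CPM.

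Of 26 tested transcription factor and thrombopoietin signalling genes, 4 were lower, 1 higher and 21 did not pass. The lower share was 15.4%, near the 13.1% over all tested genes, and the higher share was 3.85%, beside 9.83%. The lower count was 2 without resistant replicate 2, 7 without resistant replicate 3 and 8 without both libraries numbered 3, and the higher count was 3, 2, 2 and 2 without resistant replicate 3, sensitive replicate 1, 2 or 3, and 5 without both libraries numbered 3. ETS1 averaged 1.98 ± 0.988 and 13.2 ± 1.39 CPM, MEIS1, a homeobox gene, 7.92 ± 0.623 and 20.95 ± 2.72 CPM, and LMO2 44.7 ± 9.62 and 85.7 ± 12.2 CPM in resistant and sensitive cells, the LMO2 call being lost without resistant replicate 2 (0.0524). The following regulators were named after their values were seen. GATA1 averaged 84.1 ± 3.68 and 114 ± 14.5 CPM in resistant and sensitive cells (edgeR adjusted p = 0.0664, 0.0439 without resistant replicate 3, and 0.0148 without both libraries numbered 3 at a log2 fold change of −0.38), RUNX1 48.4 ± 7.64 and 37.9 ± 3.00 CPM (0.149, and 0.0214 without both libraries numbered 3) and NFE2 131 ± 38.7 and 123 ± 12.2 CPM (0.818). FLI1, an ETS factor of megakaryocytes, had no counts in any library.

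Markers of several blood cell types were read in the same libraries, since SRGN, THBS1, CD36 and CLU are also made by other cells than megakaryocytes. In bulk RNA, fewer cells of a type and less RNA per cell cannot be told apart. Calls in the marker lists stand beside 13.1% lower and 9.83% higher over all tested genes. The erythroid list of 12 genes, a lineage whose features K562 is known for, had 0 of 11 tested members called, with 3 higher and 1 lower at an unadjusted p below 0.05 in edgeR, 1 higher by DESeq2 and 0 by limma-voom. The globin genes HBZ (8.56 ± 4.65 and 4.28 ± 1.98 CPM in resistant and sensitive cells) and HBA1 (13.3 ± 4.32 and 8.65 ± 1.14 CPM) did not pass in edgeR, though HBZ did with no filter on low counts (adjusted p = 0.00376). The erythroid list summed to between 831 and 1474 CPM in resistant and between 649 and 1540 CPM in sensitive libraries. The myeloblast list of 10 genes had 3 of 6 tested members lower and none higher and summed to between 23.1 and 34.3 CPM in resistant and between 242 and 261 CPM in sensitive libraries, with CTSG at 0 everywhere. KIT, a stem cell factor receptor gene, averaged 3.45 ± 1.76 CPM in resistant and 121 ± 13.4 CPM in sensitive cells, CD33 10.6 ± 1.26 and 105 ± 6.34 CPM and PRTN3, of proteinase 3, 0.277 ± 0.238 and 1.38 ± 0.210 CPM, the PRTN3 call being lost without resistant replicate 2 (0.0934), sensitive replicate 1 (0.0861) or sensitive replicate 2 (0.0588). AZU1, which encodes azurocidin, averaged 2.40 ± 0.452 CPM in resistant and 3.88 ± 1.65 CPM in sensitive cells and did not pass (edgeR adjusted p = 0.216, 0.0322 without sensitive replicate 3, and 0.00364 without both libraries numbered 3 at a log2 fold change of −1.08). The 9 monocyte and granulocyte genes had 3 of 5 tested members lower, LYZ (9.48-fold), FCGR1A (12.4-fold) and CSF3R (7.37-fold), and summed to between 44.8 and 68.0 CPM in resistant and between 79.4 and 137 CPM in sensitive libraries, with S100A8 at 0 everywhere. ITGAM, an integrin gene of myeloid cells, averaged 51.5 ± 13.2 CPM in resistant and 39.5 ± 9.52 CPM in sensitive cells and did not pass (log2 fold change 0.38, edgeR adjusted p = 0.282), but was higher without both libraries numbered 3 (0.67, 0.00815).

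The 6 megakaryocyte markers summed to between 12.9 and 19.01 CPM in resistant and between 30.3 and 95.7 CPM in sensitive libraries, almost all of it from ITGA2B, and PF4 was at 0 everywhere. The 6 mast cell and basophil genes had 1 of 2 tested members lower (MS4A2) and summed to between 1.13 and 1.88 CPM in resistant and between 1.82 and 2.54 CPM in sensitive libraries, with CPA3 at 0. The 10 endothelial genes had 1 of 3 tested members lower (ESAM) and summed to between 1.94 and 4.96 CPM in resistant and between 2.196 and 5.53 CPM in sensitive libraries, with EMCN at 0. With so few tested members, these counts cannot be weighed against the 13.1% lower and 9.83% higher over all tested genes. The median log2 fold change of the 3 tested endothelial genes was 0.79, with 0 called higher by edgeR or limma-voom and 1 by DESeq2, ERG, which the filter left out of the edgeR test. HDC, TEK and CLDN5, the other tested members of these lists, did not pass, at log2 fold changes of 0.44, 0.79 and 0.84 and adjusted p of 0.718, 0.473 and 0.405. The calls of MS4A2 and ESAM were lost with library totals alone, with limma-voom and without several single libraries, with adjusted p of up to 0.181 and 0.146. The part of these cell type markers in the platelet gene results was not tested.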

How the data were processed

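The labels' protocols give a stranded total RNA kit with ribosomal RNA removal and paired-end reads from a NovaSeq instrument. Trimmomatic 0.39, HISAT2 2.2.1, Subread 2.0.3 and featureCounts, and the build GRCh38, stand in the submitters' processing notes. Which annotation was used, whether strand was used and what counted as a read or fragment is not given in the sources used here. Values were deposited as raw whole-number counts per Ensembl gene, and library totals differ.

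Symbols came from a name table, positions and exon lengths from GENCODE 29, and promoters from RefSeq (GRCh38.p14). The 2 groups were set against each other with edgeR 4.0.16 under R 4.3.3, using filterByExpr with a minimum count of 10, TMM factors and the robust, two-sided quasi-likelihood test, with Benjamini-Hochberg adjustment over 20891 genes. The SE is the log2 fold change's size over the square root of F. The fit was tested on simulated counts. Genes, lists and tests were chosen with earlier results of these data known, and no set test was made. All 32 platelet function genes are named, and from each other list up to 4 tested genes with the smallest p. Some genes that the rule names are not reported here. Genes named outside that rule are marked.

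Alternatives were DESeq2 size factors (DESeq2 1.42.0), library totals alone, TMM without mitochondrial genes, no filter, at least 50 counts in 3 libraries, a replicate block, DESeq2, limma-voom (limma 3.58.1), an adjusted p below 0.01, each library left out in turn, and both libraries numbered 3 left out.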

Additional observations from a re-analysis of the deposited data

How the results depend on the processing

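F2RL3, F2R, CD226, SRGN, THBS1 and LTBP1 kept their direction and stayed past the threshold under all 16 alternatives. Between 6 and 10 of the platelet function genes were lower under them, and 0 were higher except for 1, MYLK, without resistant replicate 3 and without both libraries numbered 3. Leaving out single libraries gave between 6 and 7 lower and between 0 and 1 higher. Over all genes, leaving out single libraries gave between 1051 and 3327 higher and between 1677 and 3718 lower, leaving out both libraries numbered 3 gave 4645 higher and 5021 lower, and an adjusted p below 0.01 gave 938 higher and 1586 lower. With library totals alone the split was 3041 higher and 2118 lower, against 2054 and 2741 with TMM, and the median log2 fold change was 0.20 in place of 0.03.

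Signs turned for genes that never passed. With library totals alone CD36 came to 0.059, NBEAL2 to 0.030 and TUBB1 to 0.15 on the log2 scale, TUBB1 came to 0.014 with at least 50 counts in 3 libraries, and without both libraries numbered 3 TUBB1 came to 0.033 and NFE2 to −0.12. Leaving out single libraries, the log2 fold change ranged from −0.22 to 0.88 for GP1BA, −1.25 to 0.32 for CD36, −0.49 to 0.051 for NBEAL2, −0.13 to 0.071 for TUBB1, −0.13 to 0.35 for PLEK, −0.20 to 0.26 for NFE2, −0.12 to 1.70 for HDC and −0.17 to 1.22 for TEK. The cause was not tested.

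The replicate numbers were not taken to pair the libraries, since the labels do not say that they mark a shared batch. Deviations from the group mean of same-numbered libraries correlated at 0.20, 0.085 and 0.30 over 20891 genes. Libraries of different numbers correlated at −0.31, −0.24, −0.18, −0.079, 0.022 and 0.23, the last being sensitive replicate 2 with resistant replicate 1. Whether same-numbered libraries share a batch was not tested. With a replicate block, 9 of the platelet function genes were lower and 0 higher (GP6 −0.82, adjusted p = 0.0144), and all genes gave 2859 higher and 3582 lower.

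With 3 libraries a group, genes near or under 1 CPM, among them GP1BA, CD36, PLEK and RAB27B, had wide intervals, and 13 genes could not be tested at this depth.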

Other observations

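Genes beside the platelet function genes were counted as a description of position. Within 500 kb of the 8 genes that fell started 55 other tested protein-coding genes, of which 8 were lower and 3 higher. Within 500 kb of the 11 other tested genes started 110, of which 16 were lower and 19 higher. Over all tested genes 13.1% were lower and 9.83% higher.

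ERG, an ETS factor gene of megakaryocytes and endothelium, had 47 counts in resistant libraries, with some in each, and 0 in sensitive libraries, and was left out of the edgeR test by the filter on low counts. It was named after its values were seen.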
